A study of Mus musculus with 8 samples.

Results

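Broad H3K27ac domains, taken here as regions at least 10 kb wide, were 292 of the 32196 H3K27ac regions (0.907%) called in mouse primary hepatocytes (MPH) with or without endoplasmic reticulum stress (ERS). They were chosen by width alone, the end minus the start of a region being at least 10000 bp, so width and what goes with it are descriptions. MPH from adult male C57Bl6 WT mice, kept in William's medium without serum, received 1 µM thapsigargin, which blocks the calcium pump of the ER and triggers ERS, or vehicle (0.04% DMSO) for 4 h. Each treatment had 3 H3K27ac libraries and 1 input library, which makes 8 libraries, and the authors combined them into 3 lists of regions with higher (UP), lower (DOWN) or unchanged H3K27ac under thapsigargin. The lists hold positions on mm10 and no value for a library or a region, so the depth is unknown, no value here has an error between experiments, and intervals are exact 95% binomial intervals that cover counting error only. UP, DOWN and unchanged are the authors' calls for a whole region and give no size of change.

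H3K27ac is the acetylation of lysine 27 of histone H3, a mark that EP300 and CREBBP deposit at active promoters and enhancers. Where many active elements lie side by side, the mark merges into a wide domain, and such stretches often lie at genes that a cell type expresses highly. In hepatocytes these are genes for plasma proteins, metabolic enzymes and the transcription factors (TFs) that maintain them, while ERS activates sensors such as IRE1α, encoded by Ern1.

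Broad domains held microRNA genes, whose mature products are shown because they are short transcripts that lie whole in a domain of known class. RefSeq places 12 mature miRNAs from 7 loci in broad domains, on GRCm38.p6, the assembly of mm10. The 4 shown are 1 arm of each of the loci Mir21a and Mir193a in DOWN domains, and of Mir29a and Mir29b-1 in 1 unchanged domain of 10014 bp. Capitals mark the seed, bases 2 to 8, which miR-29a-3p and miR-29b-3p share.
mmu-miR-21a-5p (chr11:86584120-86584141, minus strand): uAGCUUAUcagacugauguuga
mmu-miR-193a-3p (chr11:79712009-79712030, plus strand): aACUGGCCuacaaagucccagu
mmu-miR-29a-3p (chr6:31062673-31062694, minus strand): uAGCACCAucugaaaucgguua
mmu-miR-29b-3p (chr6:31063025-31063047, minus strand): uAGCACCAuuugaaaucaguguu

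Promoters from RefSeq, 300 bases each, are shown for genes on which the results below turn: Ern1 in an UP domain, and Egfr, Nfe2l2, Ahsg and Fgb in DOWN domains. Capitals mark matches, on either strand, to 11 consensus motifs. These are AP-1 (TGACTCA), CRE (TGACGTCA), ATF4-CHOP (TGATGCAAT), UPRE (TGACGTGG), D-box (TTANGTAA), C/EBP (TTGCNNAA), HNF4 (CAAAGTCCA), FOXA (TGTTTAC), HNF1 (GTTAATNAT), the core of the NRF2 element (TGACNNNGC) and ERSE. AP-1 and NRF2 matches overlap where TGACTCA is followed by GC, and CRE and UPRE start with the same bases.
Ern1 promoter (chr11:106487747-106488046, minus strand): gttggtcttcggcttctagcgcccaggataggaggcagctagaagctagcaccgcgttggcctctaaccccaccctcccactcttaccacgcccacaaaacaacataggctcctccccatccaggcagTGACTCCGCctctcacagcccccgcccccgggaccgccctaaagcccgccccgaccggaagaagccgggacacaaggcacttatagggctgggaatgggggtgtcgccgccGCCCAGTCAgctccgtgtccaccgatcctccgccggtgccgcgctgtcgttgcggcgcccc
Egfr promoter (chr11:16751953-16752252, plus strand): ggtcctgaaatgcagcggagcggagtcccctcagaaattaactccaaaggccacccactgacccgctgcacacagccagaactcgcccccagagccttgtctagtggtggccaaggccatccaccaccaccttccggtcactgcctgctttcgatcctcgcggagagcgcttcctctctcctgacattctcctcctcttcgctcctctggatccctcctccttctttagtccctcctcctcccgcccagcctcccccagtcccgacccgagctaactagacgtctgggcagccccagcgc
Nfe2l2 promoter (chr2:75704614-75704913, minus strand): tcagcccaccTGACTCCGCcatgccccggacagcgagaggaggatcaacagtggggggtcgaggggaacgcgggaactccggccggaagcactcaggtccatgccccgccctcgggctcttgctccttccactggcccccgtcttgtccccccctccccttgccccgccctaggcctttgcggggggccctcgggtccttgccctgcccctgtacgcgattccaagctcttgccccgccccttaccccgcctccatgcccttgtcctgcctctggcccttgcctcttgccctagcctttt
Ahsg promoter (chr16:22891765-22892064, plus strand): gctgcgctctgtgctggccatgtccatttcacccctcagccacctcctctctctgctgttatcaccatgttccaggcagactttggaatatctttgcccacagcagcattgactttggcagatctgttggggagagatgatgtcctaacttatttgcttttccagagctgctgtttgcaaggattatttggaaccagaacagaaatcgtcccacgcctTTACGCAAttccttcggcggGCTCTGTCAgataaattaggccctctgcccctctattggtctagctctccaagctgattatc
Fgb promoter (chr3:83049814-83050113, minus strand): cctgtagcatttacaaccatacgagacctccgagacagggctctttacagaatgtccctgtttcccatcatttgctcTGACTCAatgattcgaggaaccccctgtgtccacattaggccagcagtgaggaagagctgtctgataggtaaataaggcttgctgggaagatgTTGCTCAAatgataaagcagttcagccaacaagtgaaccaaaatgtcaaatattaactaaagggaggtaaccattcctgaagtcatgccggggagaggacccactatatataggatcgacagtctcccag
The Ern1 and Nfe2l2 promoters hold matches to the NRF2 core, the Ahsg promoter to C/EBP and the NRF2 core, and the Fgb promoter to AP-1 and C/EBP. The Egfr promoter holds no match to these letters. Of 32851 RefSeq promoters of this length, 12.4% hold the NRF2 core, 10.8% C/EBP and 5.2% AP-1, so such matches are not particular to these promoters.

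For Egfr and Nfe2l2, whose promoters lie in DOWN domains while an UP domain follows in the gene, the 200 bases of that UP domain with the most matches are shown, the first such window where several tie.
Egfr UP domain (chr11:16783736-16783935, plus strand): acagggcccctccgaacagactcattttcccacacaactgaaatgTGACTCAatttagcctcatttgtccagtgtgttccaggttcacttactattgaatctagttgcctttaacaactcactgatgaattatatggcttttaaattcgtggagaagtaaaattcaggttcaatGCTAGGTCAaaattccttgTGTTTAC
Nfe2l2 UP domain (chr2:75682850-75683049, plus strand): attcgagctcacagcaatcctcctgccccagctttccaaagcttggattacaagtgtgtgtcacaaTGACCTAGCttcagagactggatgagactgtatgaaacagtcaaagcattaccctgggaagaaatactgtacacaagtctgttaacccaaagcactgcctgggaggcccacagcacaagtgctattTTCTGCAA
The Egfr window holds 1 match each to AP-1, FOXA and the NRF2 core, and the Nfe2l2 window 1 each to C/EBP and the NRF2 core. Among 21439 windows of 200 bases laid end to end over the broad domains, 4.64% hold AP-1, 3.07% FOXA, 8.61% C/EBP and 6.83% the NRF2 core.

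Most broad domains were called changed. UP domains numbered 93 (31.8%, interval from 26.5% to 37.5%), DOWN domains 117 (40.1%, from 34.4% to 45.9%) and unchanged domains 82 (28.1%, from 23% to 33.6%). Over all 32196 regions, 17.1% were UP, 10.5% DOWN and 72.4% unchanged. UP domains thus made 44.3% of the changed broad domains (from 37.5% to 51.3%) and 62% of all changed regions. The chromatin came from bulk cultures, so a change in every cell and a change in some of the cells cannot be told apart. Seen from the classes, 3.47% of DOWN, 1.69% of UP and 0.352% of unchanged regions were broad. Broad domains covered 4315583 bp, which is 16.7% of the base pairs in DOWN, 11% of those in UP and 2.95% of those in unchanged regions.

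**Figure D1:**
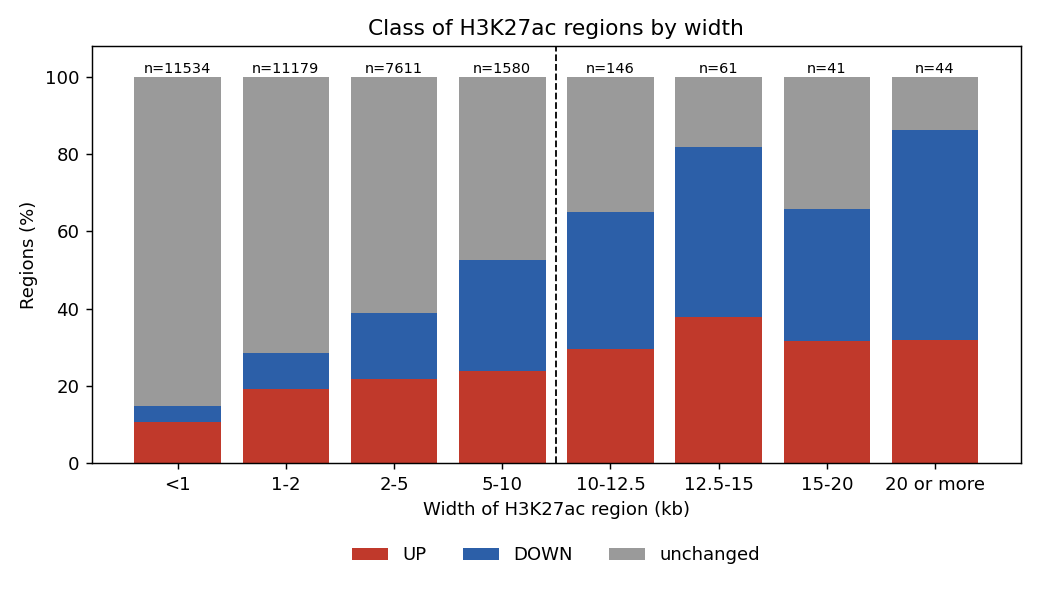
Share of UP, DOWN and unchanged H3K27ac regions in bins of width (kb, x axis), with the number of regions above each bar and a dashed line at 10 kb. The changed share is 14.9% below 1 kb, 52.5% from 5 to 10 kb and 86.4% at 20 kb or more.

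The changed share was 14.9% for regions under 1 kb, 28.4% from 1 to 2 kb, 38.8% from 2 to 5 kb and 52.5% from 5 to 10 kb. Above the threshold it was 65.1% in 146 domains of 10 to 12.5 kb, 82% in 61 of 12.5 to 15 kb, 65.9% in 41 of 15 to 20 kb and 86.4% in 44 of 20 kb or more, so it did not rise at each step. The DOWN share alone went from 4.14% under 1 kb to 28.7% from 5 to 10 kb and 54.5% (from 38.8% to 69.6%) at 20 kb or more. The UP share went from 10.7% to 23.7% and 31.8% in the same bins. The authors combined bins of 150 bp into each region, and a broad domain spanned 83.3 bins at the median, against 8.7 for narrower regions. The part of the number of bins in these calls was not tested. Changed peaks with bins of mixed direction were discarded by the authors, so these shares cover the listed regions only. The lists do not give the number or widths of the discarded peaks.

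DOWN and UP domains had nearly the same median width, 12958 and 12915 bp, and unchanged domains a median of 11834 bp. Widths reached 39094 bp in UP, 39056 bp in DOWN and 29878 bp in unchanged domains. At 30 kb or more lay 5 UP, 4 DOWN and 0 unchanged domains. Just outside the threshold were an unchanged region of 9930 bp at Fbp1, a DOWN region of 9932 bp in Aqp9 and an UP region of 9971 bp in Lactb2. Just inside were unchanged domains of 10001 bp at Slc25a51, 10014 bp at Mir29a and Mir29b-1, and 10038 bp in Evi5, the last tied with a domain in Mtss1.

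**Figure D2:**
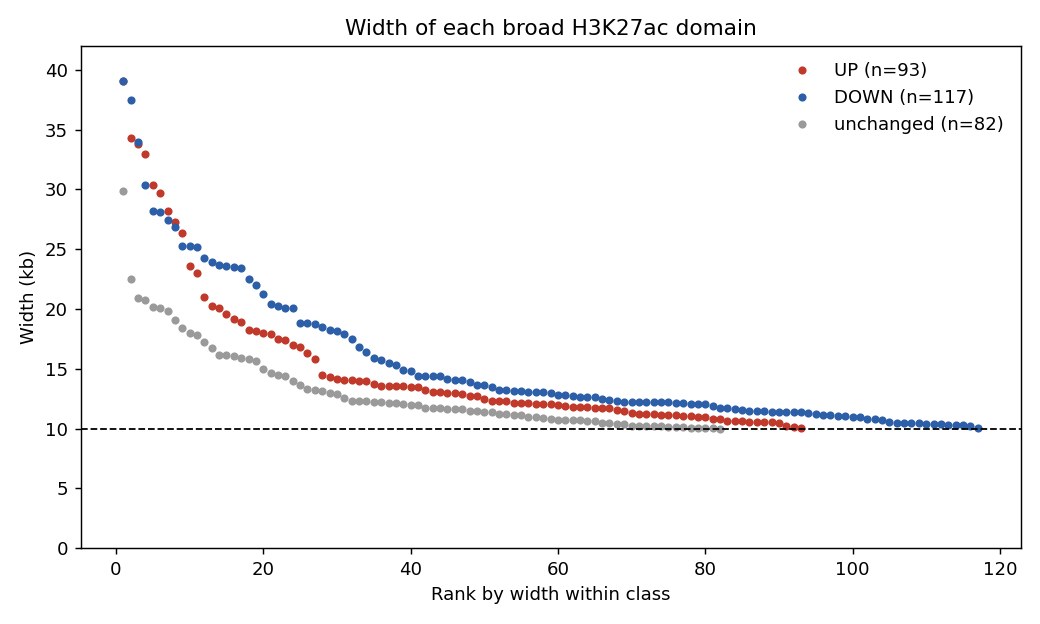
Width of each of the 292 broad domains (kb, y axis), ranked within UP (red), DOWN (blue) and unchanged (grey), with the 10 kb threshold dashed. The widest UP and DOWN domains reach 39094 and 39056 bp and the widest unchanged domain 29878 bp.

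The widest UP domain, 39094 bp, lay inside Egfr, the epidermal growth factor receptor, and the next, 34265 bp, inside the nuclear receptor gene Rora. A domain of 33768 bp covered starts of the long noncoding RNA Lncpint and of Gm13833. That of 33003 bp held TSSs of Slc39a14, a zinc and manganese transporter. Next came domains of 30334 bp in the insulin receptor gene Insr, where the TSS belongs to Gm16180, and of 29700 bp at Abhd17c. Domains of 28188 bp at Cyb5a, which encodes cytochrome b5, and of 27254 bp at the kinase gene Hipk2 completed the 8 widest.

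The widest DOWN domain, 39056 bp, lay inside the zinc finger TF gene Zbtb16, with no TSS in it. The domain of 37515 bp at Gpam, which encodes a mitochondrial acyltransferase of triglyceride synthesis, reached 36738 bp downstream of the first TSS and 776 bp upstream. A domain of 33987 bp held TSSs of Mir21a and of noncoding transcripts of Vmp1, a gene of autophagy. Domains of 30378 bp at Myh9, a nonmuscle myosin, and 28213 bp at Lpin2, a phosphatidate phosphatase, followed. The others were a domain of 28110 bp in Zmiz1, 1 of 27412 bp at H6pd, a hexose-6-phosphate dehydrogenase of the ER, and 1 of 26848 bp in Bcl2l1, which encodes the survival protein Bcl-xL.

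Among unchanged domains the widest were at Ttc39c (29878 bp), in Myo10 (22529 bp), at Palmd (20884 bp) and at Rbm47 (20792 bp). They were followed by domains in Tns1 (20189 bp), at Ugdh (20098 bp), an enzyme of glucuronate supply, in Ppp2r5e (19843 bp) and at the repressor gene Bcl6 (19086 bp). Tns1 also held a DOWN domain of 24228 bp at a TSS.

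Broad domains held a TSS of an annotated transcript in 207 of 292 cases (70.9%, from 65.3% to 76%), against 58.7% of regions from 5 to 10 kb and 32.7% of all regions under 10 kb. Among broad domains the share was 68.8% for UP, 69.2% for DOWN and 75.6% for unchanged, with intervals that overlap. A TSS of a protein-coding transcript was in 60.2% of UP, 59.8% of DOWN and 61% of unchanged domains. Under 10 kb these shares were 31.6% for UP, 18.9% for DOWN and 27.7% for unchanged regions. A further 31 domains held only TSSs of noncoding transcripts, some of them from protein-coding genes such as Lpcat3 and Hsd17b2. Inside a protein-coding gene and without a TSS lay 72 domains (24.7%), and 7 (2.4%) lay outside any annotated gene, against 41.3% and 21.8% of regions under 10 kb.

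TSSs of 2 or more genes of any kind were in 22.6% of broad domains, and 33.6% overlapped the bodies of 2 or more genes. For protein-coding genes alone the share by TSS was 6.85%. TSSs of 1 protein-coding gene were in 156 domains, of 2 in 19 and of 3 in 1, the DOWN domain of 18804 bp with Myl12a, Myl12b and Myom1, which encode myosin light chains and a sarcomere protein. The mean was 0.675 protein-coding genes by TSS and 1.05 by overlap with the gene body, and the means by TSS were 0.667 in UP, 0.684 in DOWN and 0.671 in unchanged domains. A whole protein-coding gene lay in 13 DOWN (11.1%), 5 UP (5.38%) and 6 unchanged domains (7.32%), with intervals that overlap. DOWN domains enclosed Apoa1 and Apoc3, the apolipoproteins of high-density and triglyceride-rich lipoproteins, and single genes such as Ahsg, Errfi1, Mcl1, Klf6, Angptl4 and Tgif1. UP domains enclosed Myc, Fth1, the ferritin heavy chain, Mknk2 and Sprr1a.

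Domains at a TSS reached farther downstream of it than upstream. Reach was measured from the first of the gene's protein-coding TSSs inside the domain, which need not be the gene's first TSS. Upstream reach can thus lie in the gene body, as in Rnf144b, whose DOWN domain began 70122 bp from the annotated start. In the 156 domains with TSSs of 1 protein-coding gene, the median reach was 1990 bp upstream and 10352 bp downstream. Of these domains, 85.3% (from 78.7% to 90.4%) reached farther downstream. This was so for 82% of UP, 86.9% of DOWN and 86.7% of unchanged domains. At the median a domain covered 27.5% of the gene. Measured from the midpoint of the gene's TSSs in the domain, 78.8% reached farther downstream. The exceptions included the DOWN domain at Ahsg, with 14276 bp upstream and 10979 bp downstream, and the UP domain at Ern1, with 6736 bp upstream and 5126 bp downstream.

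**Figure D3:**
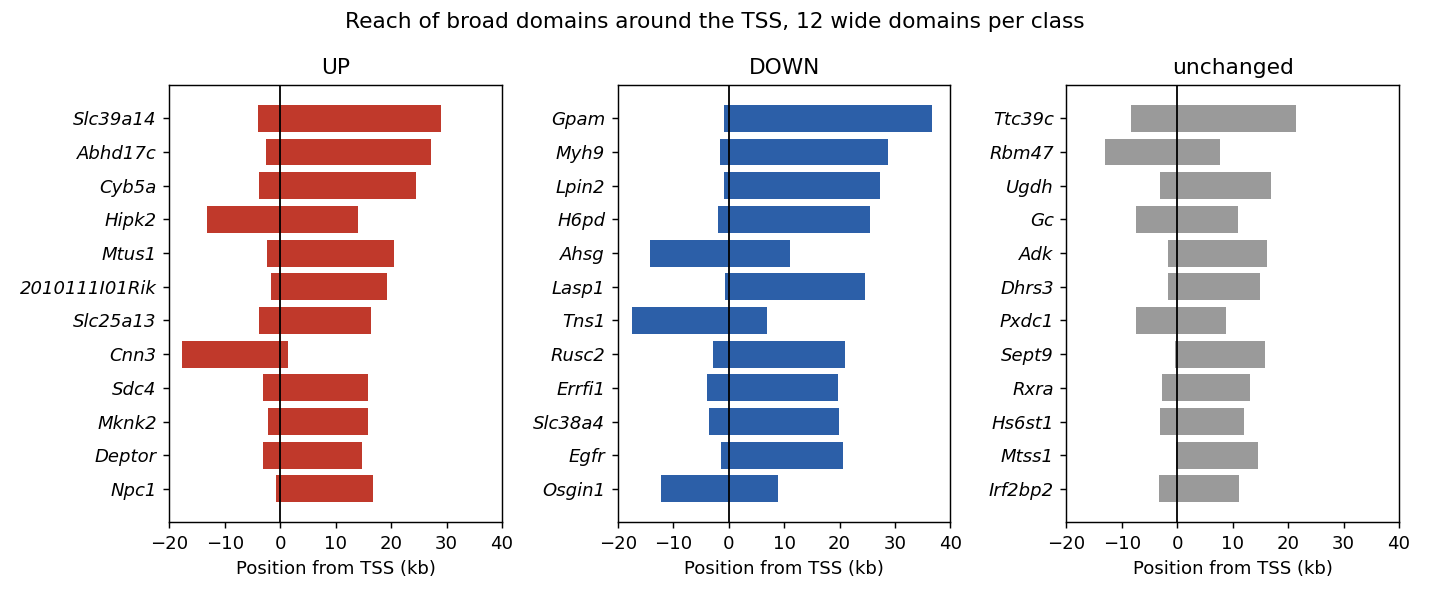
Position of 12 of the widest broad domains per class around a TSS (kb, x axis, positive in the direction of transcription). Zero is the first TSS inside the domain of its only protein-coding gene, which need not be the gene's first TSS. Most bars extend to the right of the TSS, such as that of Gpam with 36738 bp downstream, while the bar of Ahsg has 14276 bp upstream.

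Some genes carried broad domains of opposite class. Of 29 protein-coding genes overlapped by 2 or more broad domains, 8 had UP and DOWN domains and 8 DOWN domains only. A further 1 had UP domains only (Lrrfip1) and 2 unchanged domains only (Cat and Zbtb20), while 6 paired UP with unchanged and 4 DOWN with unchanged. Over all broad domains 31.8% were UP and 40.1% DOWN, so some UP and DOWN pairs come with this mix of classes. Whether 8 of 29 departs from the mix was not tested. In Egfr, a DOWN domain of 22002 bp ran from 1310 bp upstream of the gene's start to 20691 bp downstream, and UP domains followed from 23653 to 62746 bp and from 76727 to 90194 bp. In Nfe2l2, which encodes the oxidative stress TF NRF2, a DOWN domain of 10932 bp at the TSS ended at 8998 bp and an UP domain of 11498 bp began at 10334 bp. The order was the opposite in Mtus1, with an UP domain of 22987 bp and a DOWN domain from 26022 to 37396 bp.

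The others described here were Rora, Stard10, Rnf144b and Arid5b. In Rora, a DOWN domain of 13069 bp began at 642200 bp from the gene's annotated start and the UP domain of 34265 bp at 658987 bp. In Stard10, a lipid transfer protein gene, a DOWN domain with 7 of its protein-coding TSSs was followed by an UP domain of 11730 bp that also held the TSS of Arap1. In Rnf144b the DOWN domain (11576 bp) preceded the UP domain (18150 bp), and in Arid5b the UP domain (12318 bp) preceded the DOWN domain (12750 bp). Of these 7 genes, the DOWN domain lay nearer the annotated start in 5 and the UP domain in 2.

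**Figure D4:**
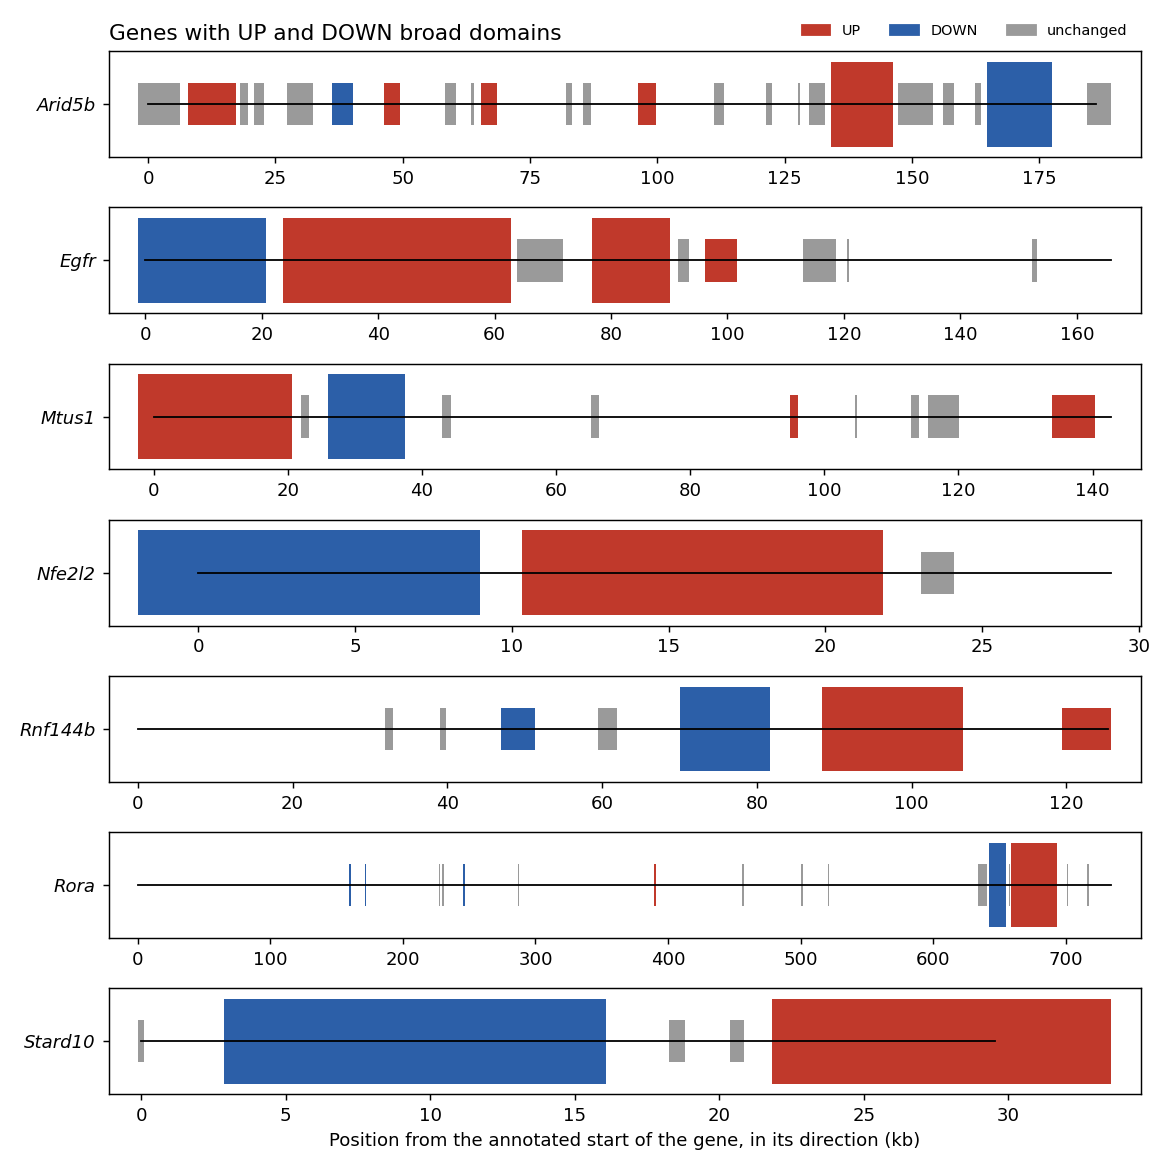
H3K27ac regions in 7 genes with UP and DOWN broad domains, as position from the gene's annotated start in kb (x axis, a scale of its own for each gene). Tall boxes are broad domains, short boxes narrower regions, colours the class and the line the gene; in Egfr, Nfe2l2, Rora, Rnf144b and Stard10 a DOWN domain precedes the UP domain.

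Broad domains also stood side by side, in runs of 1 class or of mixed class. Linked over gaps of at most 50000 bp, 20 domains fell into 5 runs, each of 4 domains. Zmiz1, a coregulator gene, held 4 DOWN domains that fill 89.7% of 84669 bp. At Hsd17b2, a steroid dehydrogenase gene, and its neighbour Sdr42e1, 4 DOWN domains fill 70.4% of 83258 bp. The Egfr run had 2 DOWN and 2 UP domains over 107544 bp. The runs at Mtss1 and at Lncpint and Mir29a each had 2 UP and 2 unchanged domains, over 97120 and 72794 bp. On chromosome 8, which held the Hsd17b2 run, 17 of 23 broad domains were DOWN and 2 UP. On chromosome 15, which held the Mtss1 run, 8 of 18 were UP and 2 DOWN. On chromosomes 6, 11 and 14, which held the other runs, 10 of 20, 6 of 22 and 5 of 14 were UP and 5, 12 and 6 DOWN. Over all broad domains 31.8% were UP and 40.1% DOWN. Class shares of all regions were not computed by chromosome, so these counts show no trait of a chromosome.

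Regions within 12.5 kb of a broad domain were mostly unchanged. Near UP domains 18.8% of 229 neighbours were UP and 9.17% DOWN, and near DOWN domains 25.6% of 250 were DOWN and 8.4% UP. Near all UP regions, 27.7% of neighbours were UP and 5.38% DOWN, and near all DOWN regions 25.6% were DOWN and 7.22% UP. Opposite calls met within this distance at 20 of 93 UP domains (21.5%), against 11.5% of UP regions of 5 to 10 kb, and at 19 of 117 DOWN domains (16.2%), against 13.9%. A neighbour can be counted for several domains, so these shares are descriptions.

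The genes of the ER stress response lay mostly in UP regions narrower than 10 kb. Counting genes whose TSS lay in a region of any width, 1 of 36 such genes was in a broad domain, Ern1 (UP, 11863 bp), and 31 were in narrower UP regions and in no broad domain. For reference, 2523 of all 12261 genes so counted were in narrower UP regions and in no broad domain, and 284 (2.32%) were at a broad domain, a share close to that of the ER stress genes (2.78%, from 0.0703% to 14.5%). By class, 113 genes (0.922%) were in DOWN, 91 (0.742%) in UP and 82 (0.669%) in unchanged domains, with some genes in more than 1 class. Hspa5, the main chaperone of the ER, was in an UP region of 6701 bp. Dnajb11, a cochaperone of Hspa5, had its TSS in an UP region of 2158 bp while its body was touched by the DOWN domain of 25256 bp at its neighbour Ahsg.

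Plasma protein genes with broad domains were mostly in DOWN domains. Of 55 measured, 6 were DOWN: Ahsg (25256 bp), Apoa1 and Apoc3 (14886 bp), Fgb, the fibrinogen beta chain (10425 bp), the haem carrier gene Hpx (10322 bp) and Trf, encoding transferrin (10312 bp). Itih2 was in an UP domain (13540 bp), and 0 were in unchanged domains. The share in DOWN domains was 10.9% (from 4.11% to 22.2%), against 0.922% of all 12261 genes. In narrower regions and in no broad domain, 32 of the 55 were unchanged, 13 DOWN and 3 UP. All 12 hepatocyte markers checked had a TSS in a region, and 4 of them (Ahsg, Apoa1, Fgb and Trf) were in broad domains. The others were in narrower regions, 7 unchanged and 1 DOWN. Of the markers of other liver cells, 1 of 8 for Kupffer cells, 1 of 6 for sinusoidal endothelial cells, 0 of 6 for stellate cells, 2 of 5 for cholangiocytes and 0 of 3 for lymphocytes had a TSS in any region, and 0 in a broad domain.

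Transcription factor genes were found in each class. Of 19 hepatocyte TF genes with a TSS in a region 3 were in broad domains (15.8%, from 3.38% to 39.6%). Of 31 nuclear receptor genes also 3 were (9.68%, from 2.04% to 25.8%), against 2.32% of all genes. From both lists, the genes in DOWN domains were Hnf4a (13466 bp), Nr1h4 (12673 bp), which encodes the bile acid receptor FXR, and Nr1i2 (16806 bp), which encodes the xenobiotic receptor PXR. Hhex (10352 bp), Zbtb20 (12587 bp) and Rxra (15844 bp), the common partner of nuclear receptors, were in unchanged domains. Zbtb20 and Rxra also had TSSs in narrower UP regions of 5333 and 6016 bp. Of the hepatocyte TF genes in no broad domain, 2 were in narrower UP, 7 in DOWN and 10 in unchanged regions. For nuclear receptor genes these counts were 5, 5 and 20, and a gene can count in more than 1 class. Of 13 PAR-bZIP and clock genes, Nfil3 (11815 bp), a repressor of D-box targets, was UP and Bhlhe40 (11682 bp), a clock repressor, unchanged. These 2 made 15.4% (from 1.92% to 45.4%). In narrower regions and in no broad domain, 4 genes of this list were UP, 1 DOWN and 7 unchanged. Of 29 AP-1, KLF and other early response genes, Myc (10583 bp) was UP, Klf6 (13174 bp), Klf3 (11689 bp) and Nfe2l2 were DOWN, and Bcl6 was unchanged. These 5 made 17.2% (from 5.85% to 35.8%). In narrower regions and in no broad domain, 7 genes of this list were UP, 5 DOWN and 13 unchanged.

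Metabolic genes were split between classes. Of 48 lipid genes with a TSS in a region, 10 were in broad domains (20.8%, from 10.5% to 35%), against 2.32% of all genes. Gpam, Lpin2, Insig2 (14394 bp) and Angptl4 (12320 bp) were DOWN and Lipc, the hepatic lipase gene (15850 bp), was UP. The 5 in unchanged domains included Acaca (11617 bp), Acsl5 (10880 bp), Dgat2 (10797 bp) and Plin2 (10229 bp). Of the lipid genes in no broad domain, 7 were in narrower UP, 3 in DOWN and 29 in unchanged regions, and a gene can count in more than 1 class. Of 53 genes of glucose, insulin and amino acid metabolism, 3 were in broad domains (5.66%, from 1.18% to 15.7%), against 2.32% of all genes. These 3 were DOWN: the glucose transporter gene Slc2a2 (12825 bp), the amino acid transporter gene Slc38a4 (23467 bp) and Ido2 (10798 bp), an enzyme of tryptophan breakdown. Of the genes in no broad domain, 12 were in narrower UP, 7 in narrower DOWN and 36 in narrower unchanged regions, some in more than 1 class. Among 36 xenobiotic and bile acid genes, 4 were in broad domains (11.1%, from 3.11% to 26.1%). Abcc2 (13961 bp), an export pump, and Gsta3 (10492 bp) were UP, and Gclc (18782 bp), which starts glutathione synthesis, and Aldh1a1 (10470 bp) DOWN. Gsta3 also had a TSS in a narrower DOWN region of 5998 bp. Of the genes of this list in no broad domain, 3 were in narrower UP, 7 in DOWN and 26 in unchanged regions, and a gene can count in more than 1 class.

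Signalling and cytoskeletal genes completed the lists. Of 46 growth factor and cytokine genes, 4 were in broad domains (8.7%, from 2.42% to 20.8%), against 2.32% of all genes. Dusp1 (14108 bp), a MAP kinase phosphatase, and Smad7 (11180 bp), an inhibitor of TGF-β signalling, were in UP domains, Egfr and its inhibitor Errfi1 (23661 bp) in DOWN domains. Of those in no broad domain, 10 were in narrower UP, 8 in DOWN and 28 in unchanged regions, and a gene can count in more than 1 class. Of 34 genes listed for YAP targets, cytoskeleton and adhesion, 5 were in broad domains (14.7%, from 4.95% to 31.1%). Myh9, Tns1, Amotl2 (15735 bp), which encodes angiomotin-like 2, and Vmp1 were DOWN and Sdc4 (18947 bp), a syndecan, UP. Vmp1 is known for autophagy rather than for these functions, and also had a TSS in a narrower UP region of 6224 bp. Of the genes of this list in no broad domain, 2 were in narrower UP, 10 in DOWN and 18 in unchanged regions. Of 7 noncoding RNA genes, Lncpint and Gm13833 were UP and Mir21a DOWN. These 3 made 42.9% (from 9.9% to 81.6%), and 4 were in narrower unchanged regions and in no broad domain. Of 21 genes of acetylation writers, readers and erasers with a TSS in a region, 0 were at a broad domain. The interval, from 0% to 16.1%, holds the share of 2.32% over all genes. The body of 1 gene on this list overlapped a DOWN domain.

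Other protein-coding genes with a TSS in UP domains included Tmbim6, Uox, Dnase2b, Slc25a13, Cnn3, Deptor, Sqstm1, Mgat4b, Npc1, Ddi2, Otulin, Mapk14, Dot1l, Ttpa, Jmjd1c, Reep3, Tex2, Aqp9, Zfp385b, B4galt1, Rapgef1, Azgp1, Masp1, Crot, Sgms2, Bcar3, Clpx, Gsk3b, Tpm1, Mindy1, Prune1, Mgat1, Ugt1a6a, Huwe1, Akirin2 and Suclg2. In DOWN domains they included Lasp1, Rusc2, Txnrd2, Osgin1, Cxadr, Lurap1l, Cald1, Fto, Shroom1, Actn4, Sorbs2, Adipor2, Selenbp2, Sdc1, Wwc1, Baiap2, Rdh7, Tm4sf4, Mef2d, Gpt2, Rnd3, Epha2, Anxa5, Dnajc5, Col18a1, Trim25, Usp10, Wsb2, Elovl2, Lrp1, Fam160b1, Ptprk, Plrg1, Gpx1, Usp4 and Phldb2. In unchanged domains they included Gc, Adk, Dhrs3, Pxdc1, Sept9, Hs6st1, Irf2bp2, Cflar, Cp, Selenof, Tnrc18, Cat, Cdc42ep4, Slc25a17, Iqgap2, Xiap, Polr1d, Kyat1, Retreg1, Bcar1, Scp2, Gldc, Chd2, Sbno2, Prkaa2, Man2a1, Ndfip2, Tshz1, Hip1r, Pim3, Otud1, Pim1, Tbce and Lims2.

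The study's LIVER-ID genes have wide H3K4me3 domains mainly in the liver and its UBQ genes have them across tissues; both lists rest on other libraries. Counted in the same way, 69 of 556 LIVER-ID genes (12.4%, from 9.79% to 15.4%) were at a broad H3K27ac domain, 31 of them in DOWN, 21 in UP and 18 in unchanged domains, with Stard10 in DOWN and UP. Of 517 UBQ genes 54 (10.4%, from 7.94% to 13.4%) were, 20 in DOWN, 14 in UP and 20 in unchanged domains. Of 11188 genes on neither list, 161 (1.44%) were, and of all 12261 genes, 284 (2.32%). Among the 38 LIVER-ID TFs, 4 were in DOWN (Hnf4a, Nfe2l2, Nr1h4 and Nr1i2), 2 in unchanged (Hhex and Zbtb20) and 0 in UP domains. The DOWN share was 10.5% (from 2.94% to 24.8%), against 0.922% of all genes. For UP the interval, from 0% to 9.25%, holds the share of 0.742% over all genes, and the body of 1 LIVER-ID TF overlapped an UP domain. In narrower regions and in no broad domain, 6 were UP, 10 DOWN and 20 unchanged, and a gene can count in more than 1 class.

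**Figure D5:**
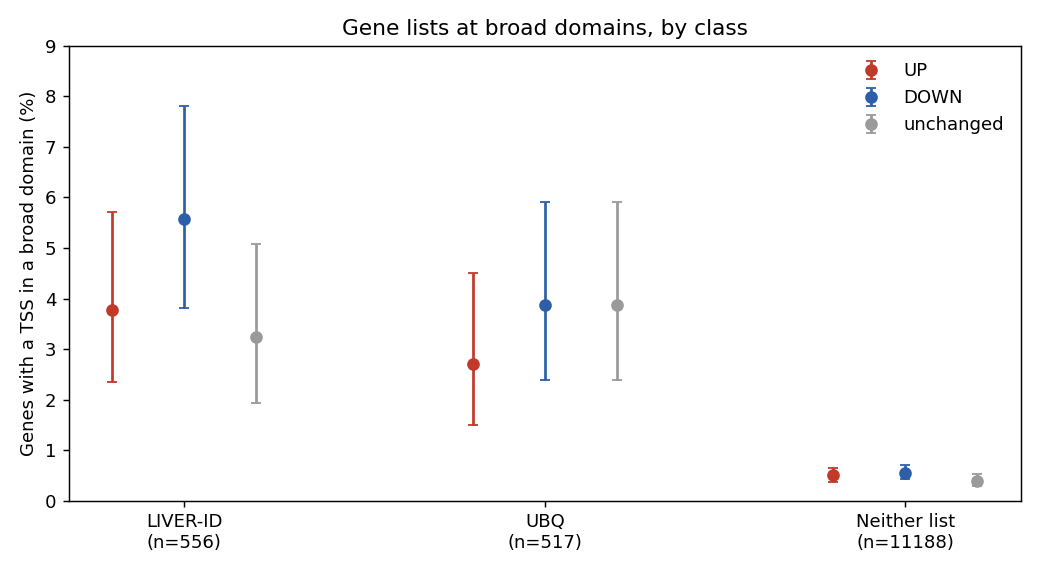
Share of genes with a TSS in a broad domain (%, y axis) for LIVER-ID genes, UBQ genes and genes on neither list, by class of the domain; points are shares and bars exact 95% binomial intervals. For LIVER-ID genes the shares are 3.78% in UP, 5.58% in DOWN and 3.24% in unchanged domains, and for genes on neither list 0.501%, 0.554% and 0.393%.

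Base composition was close between the classes. The median GC content was 45.5% in UP, 46.6% in DOWN and 46.9% in unchanged domains, and 47.6% in regions under 10 kb. The median CpG density was 13.1, 13 and 14 per kb, respectively. AP-1 matches numbered 0.274 per kb in UP, 0.237 in DOWN and 0.246 in unchanged domains, against 0.426, 0.239 and 0.31 in the narrower regions of these classes. In domains without a TSS the order turned, with 0.249 per kb in UP and 0.263 in DOWN. ATF4-CHOP matches were few, 0.0113 per kb in UP and 0.00331 in DOWN domains, and 0.0218 and 0.00573 in narrower UP and DOWN regions. RefSeq promoters inside broad domains were counted without chromosome 18. Of these, 9 of 65 in UP (13.8%), 5 of 91 in DOWN (5.49%) and 2 of 61 in unchanged domains (3.28%) held AP-1, against 5.2% of all promoters. The promoters belonged to 52, 74 and 52 genes, so a gene can be counted through several promoters. No interval was computed for these shares.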

How the data were processed

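H3K27ac ChIP-seq libraries of MPH were aligned with Bowtie by the authors, who called broad peaks with MACS2 on pooled libraries, tested 150 bp bins (reads extended to 200 bp, prior count 5) with csaw in a paired model and merged the bins of each peak. Changed peaks had an FDR not above 0.05. UP peaks had no fewer than 2 UP bins per DOWN bin, DOWN peaks no more than 0.5, and ambiguous peaks were discarded. The deposited values are start and end positions in bp on mm10, with no count, signal or p-value. Here, regions were joined to TSSs and genes of GENCODE M21 (the authors used an earlier release) and to RefSeq sequences of GRCm38.p6 with Python 3.11.15, numpy 2.4.6, scipy 1.17.1 and pysam 0.24.0. No test was run: a single comparison yielded the lists, and regions are not replicates. The members and gene lists were chosen with earlier results of these data known, and the promoters and windows shown, and the 50000 bp gap of runs, after their values were seen. LIVER-ID and UBQ lists are the study's. Values were given for genes at the 8 widest domains of each class, listed genes and LIVER-ID TFs in broad domains, the domain with most genes, and the 3 regions on each side of the threshold. Interval, share and motif functions were tested on simulated data. A few genes and 1 gene list are not reported here. Alternatives were other minimum widths, base pairs, TSS definitions, distances, gene backgrounds and the central 2000 bp.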

Additional observations from a re-analysis of the deposited data

How the results depend on the processing

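Of 53 recomputed values, 37 stayed within the 95% interval of the reported value and 16 did not; the cause was not tested except where the alternative's own construction gives it. No paired analysis was possible because the lists hold positions without values per library, so that leave-one-out was likewise not run. The shares of UP and DOWN domains stayed within their intervals at minimum widths of 8000 bp, 12.5 kb and 15000 bp, counted in base pairs, and with or without a TSS; the unchanged share was 21.2% at 12.5 kb. The share of domains with a TSS was 60.3% for protein-coding transcripts, which are fewer, and 77.6% at 15000 bp. Domains with 2 or more genes were 22.6% by TSS, 33.6% by overlap with gene bodies, 2.4% by whole genes and 6.85% for protein-coding genes. Median GC was 44.8% in UP and 44.5% in DOWN domains without a TSS, and 45% in the central 2000 bp of unchanged domains. Median CpG per kb in the central 2000 bp was 10 in UP, 11 in DOWN and 11.8 in unchanged domains, and in domains without a TSS 9.9, 9.66 and 11.9. AP-1 in DOWN domains without a TSS was 0.263 per kb. The unknown depth of the libraries limits what an unchanged call can show.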
